A study of Homo sapiens with 6 samples.

Results

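A set of 10 genes of the cohesin system was examined, taken from a list of gene names: the cohesin core subunits SMC1A, SMC3, RAD21, STAG1 and STAG2, the regulators PDS5A and PDS5B, the loader NIPBL, the protector sororin (gene CDCA5) and the protease separase (gene ESPL1). All 10 were measured, each by 1 transcript cluster (the array's unit for a gene, built from many probe sets), of 15949 genes in all. The cells were PLC/PRF/5, an established human hepatocellular carcinoma line, harvested 48 h after transfection. A group of 3 arrays came from cells given siRNAs against SLU7, a second-step splicing factor (siSLU7), and a group of 3 arrays came from cells given an irrelevant siRNA (control). The design text names 1 control siRNA, while the sample descriptions number both siRNAs from 1 to 3. Those numbers were read as replicates, and if they mark different siRNAs, each group holds more than 1 reagent. Both groups otherwise had the same medium and the same transfection reagent, and the samples are bulk RNA from 1 cell line, so a change in the share of cells at a given cell cycle stage and a change in RNA per cell cannot be told apart.

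Cohesin is a ring of SMC1A, SMC3 and RAD21, with STAG1 or STAG2 bound to it, that holds sister chromatids together from replication to anaphase and folds chromatin into loops. NIPBL and MAU2 load the ring, WAPL with PDS5A or PDS5B opens it, and sororin binds PDS5 proteins on acetylated cohesin and blocks that opening. At anaphase separase cuts RAD21 and frees the sisters. Sororin pre-mRNA is known in human cells as unusually sensitive to the splicing machinery: depletion of several splicing factors leaves an intron in it and sister chromatids come apart. The values used here summarise the probe sets of a whole gene, so splicing of sororin cannot be read from them.

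Promoter letters are shown for CDCA5 and ESPL1, whose products act at mitosis, and for PDS5B, which had the largest difference between groups. The windows are the 250 bases before the RefSeq start (assembly GRCh38.p14), 5′ to 3′ on the gene's strand, at chr11:65084041-65084290, minus strand for CDCA5, at chr12:53268049-53268298, plus strand for ESPL1 and at chr13:32586202-32586451, plus strand for PDS5B. Capitals mark 3 motifs searched on both strands: the cell cycle homology region (TTTGAA or TTCGAA), the E2F core (GCGGGAA) and the CCAAT box (CCAAT).
CDCA5: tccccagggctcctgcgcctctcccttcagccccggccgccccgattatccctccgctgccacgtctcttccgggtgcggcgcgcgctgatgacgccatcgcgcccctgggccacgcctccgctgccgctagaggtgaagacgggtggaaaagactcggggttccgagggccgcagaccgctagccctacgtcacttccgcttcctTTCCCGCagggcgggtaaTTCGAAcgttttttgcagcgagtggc
ESPL1: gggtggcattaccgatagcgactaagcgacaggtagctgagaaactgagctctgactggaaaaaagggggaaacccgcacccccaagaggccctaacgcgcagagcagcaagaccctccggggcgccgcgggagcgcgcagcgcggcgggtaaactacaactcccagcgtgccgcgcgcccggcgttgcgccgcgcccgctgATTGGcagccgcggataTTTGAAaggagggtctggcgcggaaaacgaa
PDS5B: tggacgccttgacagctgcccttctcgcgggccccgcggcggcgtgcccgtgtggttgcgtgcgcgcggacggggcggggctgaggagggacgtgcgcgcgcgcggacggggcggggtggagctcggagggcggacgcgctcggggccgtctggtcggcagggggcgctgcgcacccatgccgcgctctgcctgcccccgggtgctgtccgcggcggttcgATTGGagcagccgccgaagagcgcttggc
The CDCA5 window held the E2F core 44 to 38 bases before the start and TTCGAA 26 to 21 bases before it. The ESPL1 window held a CCAAT box 48 to 44 bases and TTTGAA 31 to 26 bases before the start. The PDS5B window held a CCAAT box 29 to 25 bases before the start and neither of the other motifs. The 3 motifs did not overlap one another in these windows. RAD21 was not found in the RefSeq promoter table. Of the 9 members found there, 3 held the cell cycle homology region (CDCA5, SMC3 and ESPL1), against 14.3% of all 35116 windows of that length. The E2F core was in 4 of them (CDCA5, SMC1A, STAG1 and PDS5A), against 5.52% of all windows, and a CCAAT box in 5 (STAG1, STAG2, PDS5A, PDS5B and ESPL1), against 32.0%. SMC1A and STAG2 have several starts in that table, and each start gave a window. A member was counted if any of its windows held the motif, while the shares are per window, so the units differ. A match is a description of the letters and not evidence of a bound factor.

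SLU7, the targeted gene, measured 5.84, 5.58 and 6.21 log2 units in the siSLU7 arrays, against 7.89, 7.01 and 7.24 in the control arrays, which is 35.2% of the control level (limma adjusted p = 0.078). The siSLU7 replicate 1 and control replicate 2 arrays stood apart from the other 4 on the first principal component, which held 36.6% of the variance, with scores of 49.5 and 61.7 against -37.4 to -17.9. Since 1 of these arrays belongs to each group, results are also given within that pair, where no error can be had, and within the other 4. Of the hepatocyte markers, TF (11.8 to 12.6 log2 units), APOA1 and the keratins KRT8 and KRT18 were bright on all arrays. ALB (2.84 to 4.52) lay under the lower quartile of its array, and AFP (4.84 to 6.50) and SERPINA1 (4.06 to 5.95) did so on some arrays. The leukocyte marker PTPRC was at 1.73 to 2.40. Not all markers of other cell types were dim: the fibroblast marker PDGFRB was at 8.09 to 8.48 and the endothelial marker KDR at 6.25 to 7.30. Of the other blood markers, HBB was at 5.64 to 6.41, CD14 at 4.39 to 5.68 and CD3E at 4.27 to 5.30. All 10 hepatocyte markers had differences below 0, where 49.5% of all clusters did, and none was called. For 5 of them the groups did not overlap, as for 9.21% of all clusters in that direction. For 3 the unadjusted limma p was under 0.05, where 6.54% of all clusters were lower by that measure. The log2 values of all 10 summed to 82.9 to 85.0 per siSLU7 array, against 88.1 to 89.9 per control array. The part of this in the cohesin values was not tested. No marker of blood cells (4 measured), endothelial cells (4) or fibroblasts (5) was called.

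None of the 10 cohesin genes passed the limma test at an adjusted p of 0.05 (adjusted p from 0.188 to 0.969), where 0.433% of all 18708 clusters did. PDS5B was the 1 member with an unadjusted limma p under 0.05, and it was lower after siSLU7, as were 6.54% of all clusters by that measure. Differences of the siSLU7 mean minus the control mean ran from -0.89 to 0.26 log2 units. They were below 0 for 7 members and above 0 for 3 (CDCA5, RAD21 and STAG1), with a median of -0.28, against 49.5% of all clusters below 0 and a median over all clusters of 0.0043. The members' median was -0.13 without control replicate 1, -0.46 without control replicate 2 and -0.41 within the 4 arrays that group together. The groups did not overlap for 2 members, PDS5B and STAG2, both lower, where 9.21% of all clusters were lower without overlap. No member was higher without overlap, where 9.64% of all clusters were. An exact two-sided permutation test of 3 arrays against 3 cannot go below 0.1. Groups without overlap always give that value, so for PDS5B and STAG2 it restates the lack of overlap and adds no support.

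**Figure D1:**
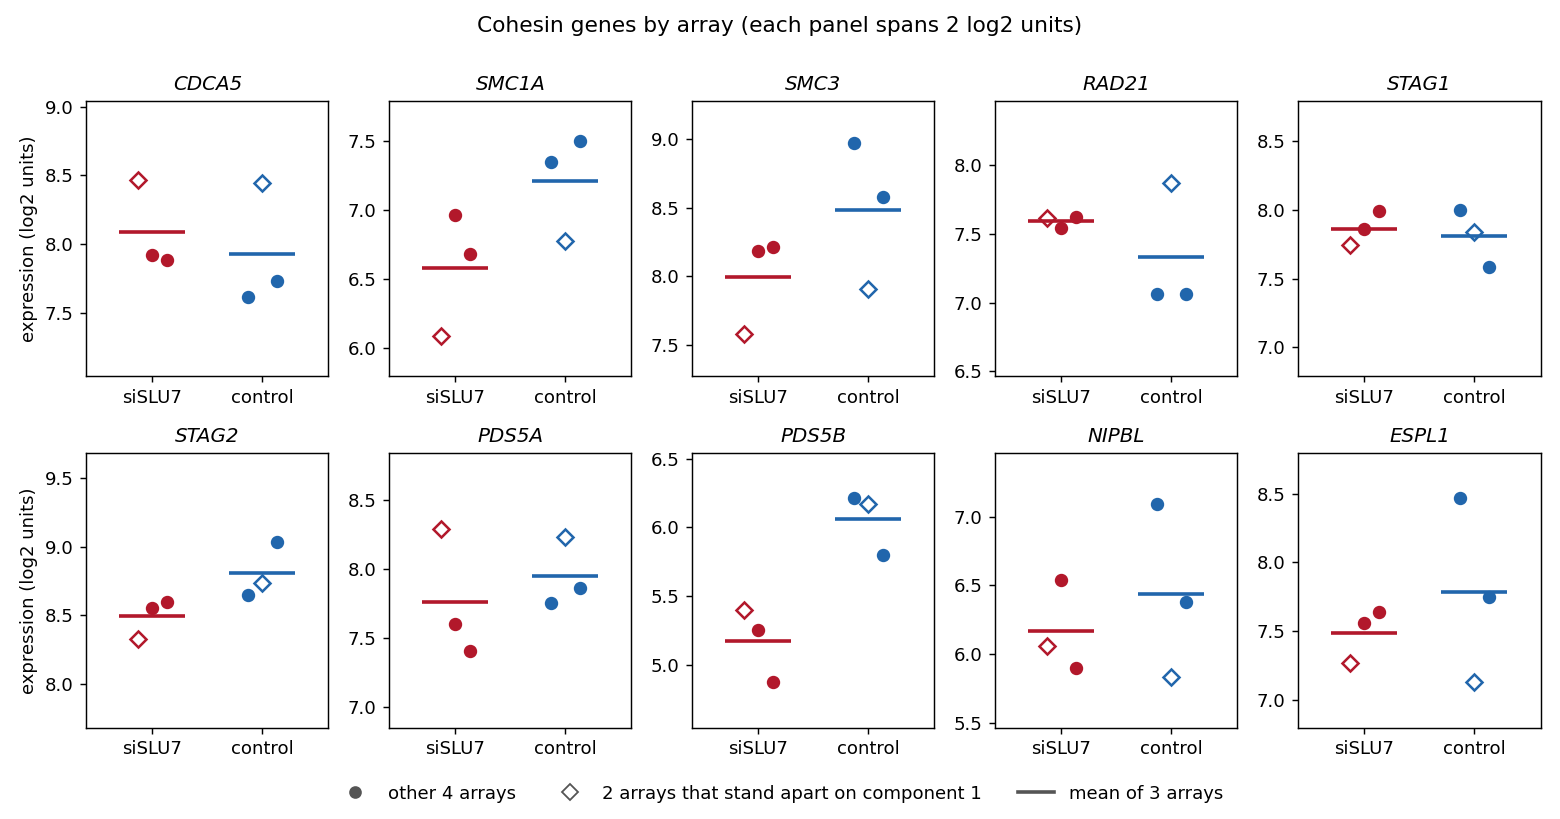
Expression (log2 units) of the 10 cohesin genes on each array, siSLU7 left and control right; points are arrays, open diamonds the 2 arrays that stand apart on the first principal component, bars group means of 3 arrays. PDS5B and STAG2 are the genes whose groups do not overlap, and CDCA5 is highest on both open diamonds.

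Sororin, the protector, did not differ beyond the spread between arrays. CDCA5 measured 8.46, 7.92 and 7.88 log2 units in the siSLU7 arrays, against 7.61, 8.45 and 7.73 in the control arrays. The groups overlapped, and the highest value of each group was on the array that stands apart. The means were 8.09 ± 0.33 with siSLU7 and 7.93 ± 0.45 with control (SD, n = 3 each), a difference of 0.16 ± 0.32 (SE) log2 units with a limma adjusted p of 0.920. The 95% interval ran from -0.56 to 0.88, or from 0.676 to 1.84 times the control level, and included no change. The difference was -0.001 without control replicate 1 and -0.031 without siSLU7 replicate 1. Within the pair of arrays that stand apart it was 0.016, a difference between single arrays. Within the other 4 it was 0.23, and there both siSLU7 arrays lay above both control arrays. With so few arrays this was not particular to CDCA5: of the members, 2 were higher and 6 lower without overlap there. The share over all clusters was not computed.

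CDCA5 was 0.67 log2 units higher on the 2 arrays that stand apart than on the other 4, several times its difference between groups. The 5 named clusters with the profile most like that of CDCA5, by the mean absolute difference of centred log2 values over the 6 arrays, were PLXNA4 (0.032), CHERP (0.034), ADAMTS7 (0.037), ERCC3 (0.038) and PIP4K2A (0.040). That selection fixes their shared shape, for which 1 example is given. ERCC3, a helicase subunit of the transcription factor TFIIH, measured 9.39, 8.98 and 8.92 with siSLU7, against 8.67, 9.52 and 8.75 with control. Of the cohesin members the nearest to CDCA5 were RAD21 (0.15) and PDS5A (0.19), and the farthest was SMC1A (0.63).

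The ring's SMC subunits, the long coiled-coil ATPases, had negative differences that did not pass the test. SMC1A measured 6.08, 6.97 and 6.68 log2 units in the siSLU7 arrays, against 7.35, 6.78 and 7.50 in the control arrays. A single control array, replicate 2, lay within the range of the siSLU7 arrays. Its difference was -0.63 ± 0.33 (SE) log2 units (limma adjusted p = 0.475, 95% interval -1.38 to 0.11). The pair gave -0.70 and the other 4 arrays -0.60. SMC3, its partner, measured 7.58, 8.18 and 8.21 with siSLU7, against 8.97, 7.91 and 8.58 with control. Here too control replicate 2 was the array that overlapped. The SMC3 difference was -0.49 ± 0.34 (limma adjusted p = 0.636, 95% interval -1.27 to 0.29), with -0.33 within the pair and -0.57 within the other 4. The log2 ratio of SMC1A to SMC3 within each array averaged -1.42 ± 0.17 with siSLU7 and -1.27 ± 0.30 with control (SD, n = 3 each), and the groups overlapped (exact two-sided permutation p = 0.6).

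RAD21, the kleisin that closes the ring and is cut by separase, was the member with the highest difference. It measured 7.62, 7.54 and 7.62 log2 units in the siSLU7 arrays, against 7.07, 7.87 and 7.06 in the control arrays. The siSLU7 arrays were nearly equal and lay between control replicate 2 and the other control arrays. The difference was 0.26 ± 0.29 (SE) log2 units (limma adjusted p = 0.813, 95% interval -0.40 to 0.93). It pointed down within the pair (-0.25) and up within the other 4 arrays (0.52).

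Of the alternative subunits, STAG2 was lower on every siSLU7 array than on every control array by a small amount, and STAG1 was not. STAG2 measured 8.33, 8.55 and 8.60 log2 units with siSLU7, against 8.65, 8.73 and 9.04 with control. The nearest arrays of the 2 groups were 0.052 log2 units apart. The difference was -0.31 ± 0.25 (SE), or 80.4% of the control level (limma adjusted p = 0.692, 95% interval -0.88 to 0.25). The pair gave -0.41 and the other 4 arrays -0.27. STAG1 measured 7.74, 7.86 and 7.99 with siSLU7, against 8.0, 7.84 and 7.58 with control. Its difference was 0.057 ± 0.25 (limma adjusted p = 0.969), the smallest in size among the members, with a 95% interval of -0.50 to 0.62. It was -0.055 without control replicate 3 and -0.0057 without siSLU7 replicate 3. The log2 ratio of STAG2 to STAG1 within each array averaged 0.63 ± 0.057 with siSLU7 and 1.0 ± 0.41 with control (SD, n = 3 each). These groups overlapped (exact two-sided permutation p = 0.2).

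PDS5B, 1 of the paralogs that bind WAPL or sororin on the ring, had the largest difference of the 10 genes. It measured 5.4, 5.25 and 4.87 log2 units in the siSLU7 arrays, against 6.21, 6.17 and 5.80 in the control arrays. Every siSLU7 array was lower than every control array, and siSLU7 replicate 3 lay at the lower quartile of its array (4.88), where values are dim and folds uncertain. The means were 5.17 ± 0.27 with siSLU7 and 6.06 ± 0.23 with control (SD, n = 3 each). The difference was -0.89 ± 0.27 (SE) log2 units, which is 54.1% of the control level, with a 95% interval of 0.355 to 0.824 times control that is not adjusted for the number of clusters. It had a limma adjusted p of 0.188 over all clusters, outside the threshold, and an unadjusted p of 0.0095. The pair gave -0.77 and the other 4 arrays -0.94, and the difference ran from -1.02 to -0.74 when each array was left out in turn.

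PDS5A, the other paralog, measured 8.29, 7.60 and 7.40 log2 units with siSLU7, against 7.75, 8.24 and 7.86 with control. Like CDCA5 it was highest on both arrays that stand apart. Its difference was -0.19 ± 0.31 (SE) log2 units (limma adjusted p = 0.892, 95% interval -0.89 to 0.52), with 0.056 within the pair and -0.31 within the other 4. The log2 ratio of PDS5B to PDS5A, which cancels a shift shared by both genes on an array, was -2.89, -2.35 and -2.53 with siSLU7, against -1.54, -2.06 and -2.06 with control. All siSLU7 ratios lay below all control ratios. The ratio differed by -0.70 log2 units, a 1.62-fold relative decrease. The exact two-sided permutation p was 0.1, the smallest possible, which groups without overlap always give. The 3 ratios of partner genes were chosen after the values were seen.

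**Figure D2:**
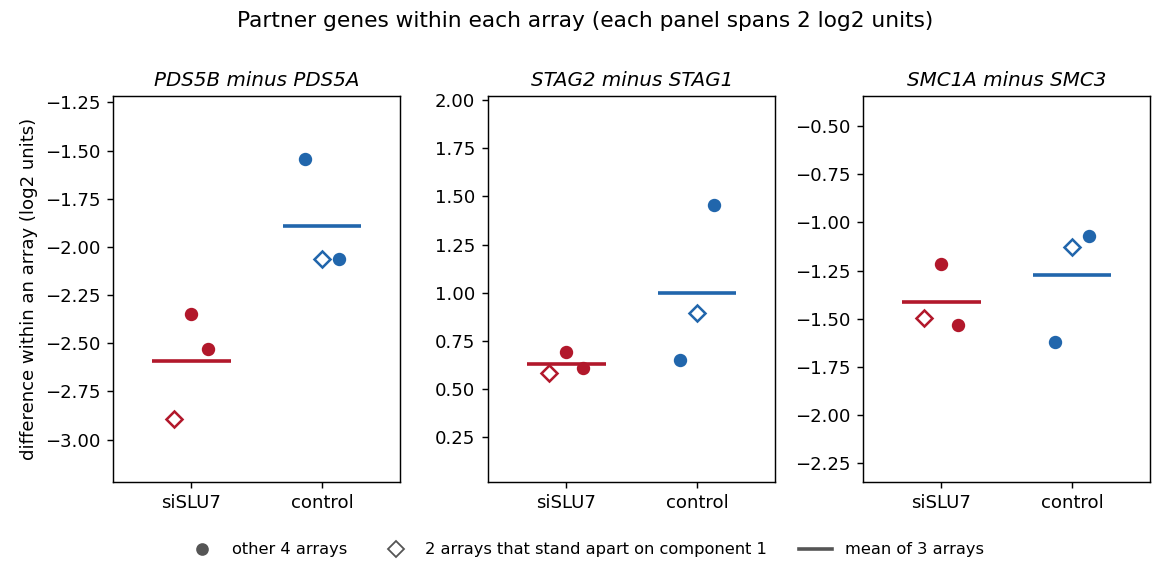
Log2 ratio of partner genes within each array, siSLU7 left and control right; points are arrays, open diamonds the 2 arrays that stand apart, bars group means of 3 arrays. The groups do not overlap for PDS5B minus PDS5A and overlap for STAG2 minus STAG1 and SMC1A minus SMC3.

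NIPBL, the loader, and ESPL1, separase, had wide spreads among control arrays. NIPBL measured 6.06, 6.54 and 5.90 log2 units with siSLU7, against 7.09, 5.83 and 6.38 with control. The lowest and the highest of the 6 values were both on control arrays. Its difference was -0.27 ± 0.36 (SE) log2 units (limma adjusted p = 0.855, 95% interval -1.10 to 0.56), and 0.059 without control replicate 1. ESPL1 measured 7.27, 7.56 and 7.64 with siSLU7, against 8.47, 7.13 and 7.75 with control. Here as well the extremes were control arrays. Its difference was -0.29 ± 0.36 (limma adjusted p = 0.835, 95% interval -1.11 to 0.52), and 0.048 without control replicate 1. For both genes the difference was above 0 within the pair (0.23 for NIPBL and 0.14 for ESPL1) and below 0 within the other 4 (-0.52 and -0.51).

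**Figure D3:**
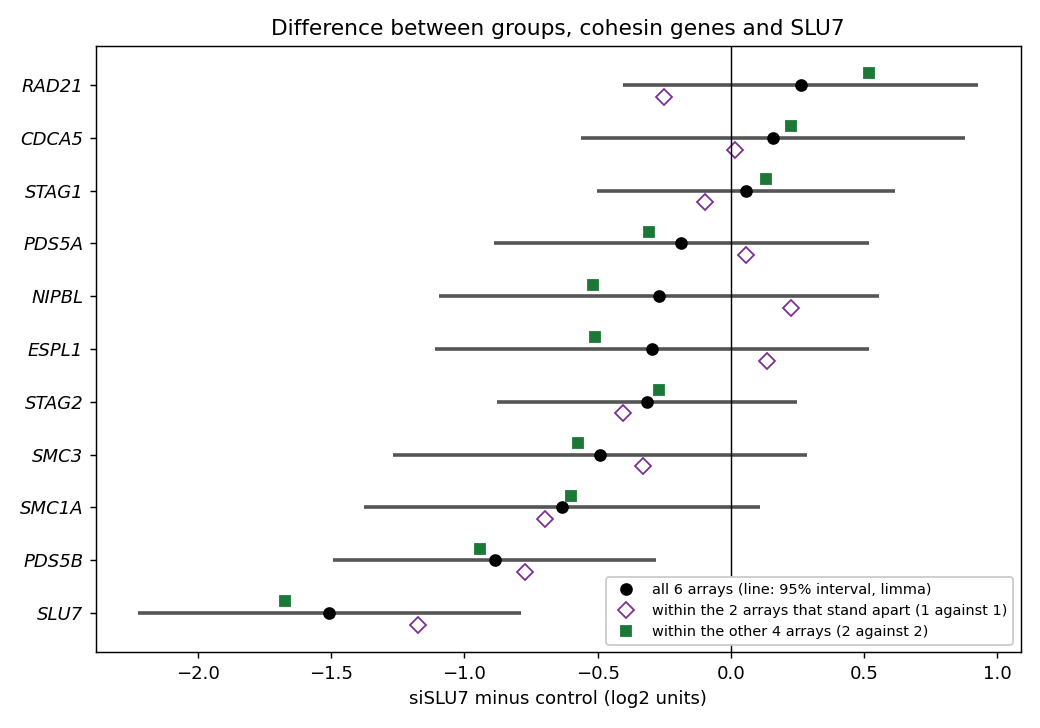
Difference siSLU7 minus control (log2 units) for the 10 cohesin genes and SLU7; circles use all 6 arrays with the 95% limma interval as a line, diamonds the pair of arrays that stand apart and squares the other 4 arrays. The interval leaves out 0 for PDS5B and SLU7 and includes it for the other 9 genes.

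For 8 of the 10 members the mean of the 2 arrays that stand apart differed from that of the other 4 by more, in size, than the siSLU7 mean differed from the control mean, with PDS5B and STAG2 as the exceptions. The same held for 59.4% of all clusters, since these 2 arrays were singled out on the first component of the same values, so the count says nothing particular to cohesin. It was narrow for STAG1 (0.064 against 0.057 log2 units in size) and SMC1A (0.69 against 0.63). CDCA5 and PDS5A were higher on both of those arrays than on all other 4, as 21.5% of all clusters were. SMC3 and ESPL1 were lower on both, as 12.2% of all clusters were. The other 6 overlapped. Sign agreed between the pair and the other 4 for 5 of the 10 members: CDCA5, SMC1A, SMC3, STAG2 and PDS5B. For CDCA5 the pair gave only 0.016. The share over all clusters was not computed, so this count is a description only.

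**Figure D4:**
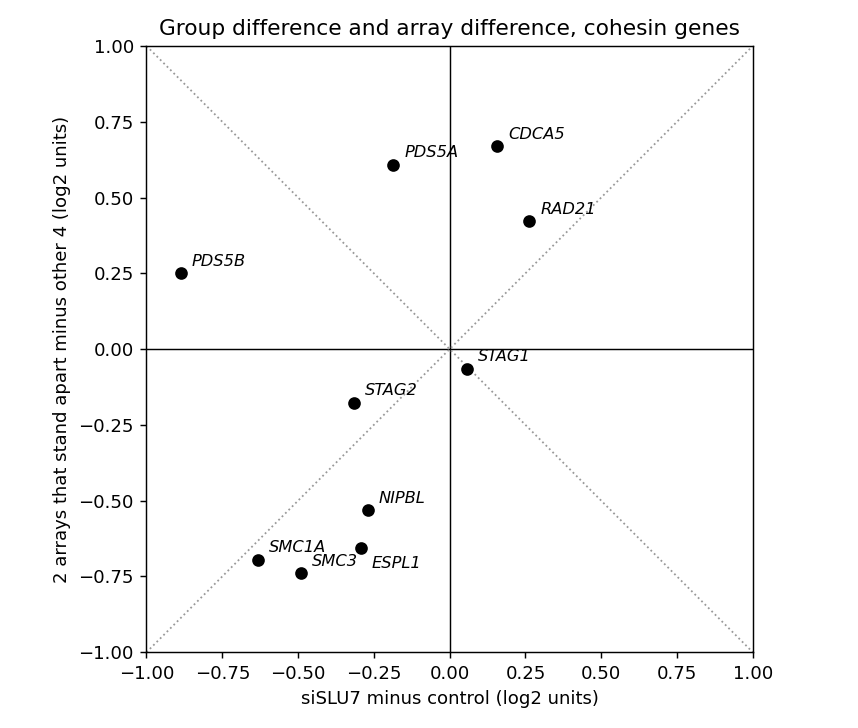
For each cohesin gene, the difference siSLU7 minus control (x axis, log2 units) and the mean of the 2 arrays that stand apart minus that of the other 4 (y axis, log2 units); points between the dotted diagonals at left and right differ more between groups than between arrays. PDS5B and STAG2 lie there, and CDCA5, PDS5A, RAD21 and PDS5B lie above 0 on the y axis with 0.67, 0.61, 0.42 and 0.25.

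The genes that load, open and acetylate cohesin were tested in the same fit, and none of the 9 measured passed it. Their median difference was 0.043 log2 units, with 5 above 0 and 4 below. CHTF18, part of the alternative clamp loader that acts in cohesion during replication, measured 6.2, 6.63 and 6.80 with siSLU7, against 7.86, 8.04 and 8.06 with control. Every siSLU7 array was more than 1 log2 unit below every control array. Its difference was -1.44 ± 0.26 (SE) log2 units, or 2.72-fold lower (limma adjusted p = 0.058), with -1.84 within the pair and -1.24 within the other 4. CTCF, the DNA-binding protein that halts cohesin at loop anchors, measured 6.39, 7.38 and 7.07 with siSLU7, against 5.85, 5.30 and 6.23 with control. Its groups did not overlap, with siSLU7 higher. The difference was 1.15 ± 0.35 (limma adjusted p = 0.198). MAU2, the partner of NIPBL (named KIAA0892 in the array annotation), measured 5.95, 6.36 and 6.40 with siSLU7, against 6.92, 6.74 and 7.20 with control, without overlap. The MAU2 difference was -0.72 ± 0.26 (limma adjusted p = 0.287). WAPL, which opens the ring, differed by -0.0064 ± 0.27 (limma adjusted p = 0.999).

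Genes that protect or end cohesion at mitosis included none called among 17 measured, with a median difference of 0.11 log2 units. HASPIN, the histone kinase that marks centromeres (GSG2 in the array annotation), measured 6.87, 7.10 and 6.86 with siSLU7, against 5.82, 6.2 and 6.0 with control, without overlap. Its difference was 0.94 ± 0.24 (SE) log2 units (limma adjusted p = 0.139). PTTG1, securin, the inhibitor of separase, differed by 0.29 ± 0.28 (limma adjusted p = 0.768), and the shugoshins SGO1 and SGO2 by 0.11 ± 0.34 and 0.64 ± 0.59 (limma adjusted p = 0.955 and 0.752). Of the meiotic subunits, REC8 and STAG3 were measured and not called. STAG3, which has partial copies elsewhere in the genome and whose value is therefore uncertain, differed by 0.83 ± 0.32 (limma adjusted p = 0.306).

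In the related condensin and SMC5/6 complexes none of 15 measured genes was called, and the median difference was 0.025 log2 units. The groups did not overlap for 3 genes that were higher with siSLU7 (SMC6, EID3 and NSMCE2) and 4 that were lower (NCAPH2, NCAPD3, NSMCE1 and NSMCE4A). Of all clusters, 9.64% were higher and 9.21% lower without overlap. SMC6 measured 5.12, 5.80 and 5.52 with siSLU7, against 3.87, 3.40 and 4.39 with control. No array of the groups overlapped, and all control values lay under the lower quartile of their arrays, so the fold is uncertain. The difference was 1.59 ± 0.33 (SE) log2 units (limma adjusted p = 0.076). EID3, an SMC5/6 subunit known from testis, differed by 2.0 ± 0.51 (limma adjusted p = 0.133), with control values of 1.84 to 3.86 that were dim as well. Its values on siSLU7 replicates 1 and 2 (4.74 and 4.29) also lay under the lower quartiles of their arrays (4.97 and 4.90), so this fold is uncertain too. NCAPH2, a condensin II subunit, measured 7.89, 8.06 and 7.82 with siSLU7, against 8.59, 8.88 and 9.08 with control, a difference of -0.93 ± 0.25 (limma adjusted p = 0.151).

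General mitotic genes gave no called member among 23, with a median difference of -0.0014 log2 units, 11 above 0 and 12 below. The groups did not overlap for 2 genes that were higher with siSLU7 (CDCA8 and UBE2C) and 1 that was lower (MKI67), where 9.64% and 9.21% of all clusters were. MKI67, the proliferation marker, measured 8.98, 9.03 and 8.98 with siSLU7, against 9.21, 9.36 and 9.35 with control, a difference of -0.31 ± 0.23 (SE) log2 units (limma adjusted p = 0.662). TOP2A differed by -0.39 ± 0.27 (limma adjusted p = 0.628). CDCA8, borealin of the chromosomal passenger complex, measured 8.37, 8.59 and 8.74 with siSLU7, against 7.28, 7.19 and 7.55 with control, a difference of 1.23 ± 0.25 (limma adjusted p = 0.075). UBE2C, the ubiquitin-conjugating enzyme of the anaphase-promoting complex, differed by 0.88 ± 0.35 (limma adjusted p = 0.334). The list's median was 0.47 log2 units lower on the 2 arrays that stand apart than on the other 4, whereas CDCA5 was higher on them. This was not particular to CDCA5. Within the list, CENPE (by 0.793 log2 units) and CCNA2 (by 0.465) were also higher on both of those arrays than on all other 4. The part of the array difference in the member values was not tested.

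Among splicing factors known in human cells to be needed for sororin pre-mRNA, 5 were measured and none was called, with a median difference of 0.52 log2 units. MFAP1, a spliceosome protein, measured 8.92, 9.0 and 9.08 with siSLU7, against 7.74, 8.08 and 8.12 with control, without overlap, a difference of 1.02 ± 0.24 (SE) log2 units (limma adjusted p = 0.110). SNW1 differed by 0.52 ± 0.30, CDC5L by 1.09 ± 0.45, PRPF8 by -0.27 ± 0.24 (lower on every siSLU7 array) and SART1 by -0.25 ± 0.30 (limma adjusted p from 0.358 to 0.824).

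**Figure D5:**
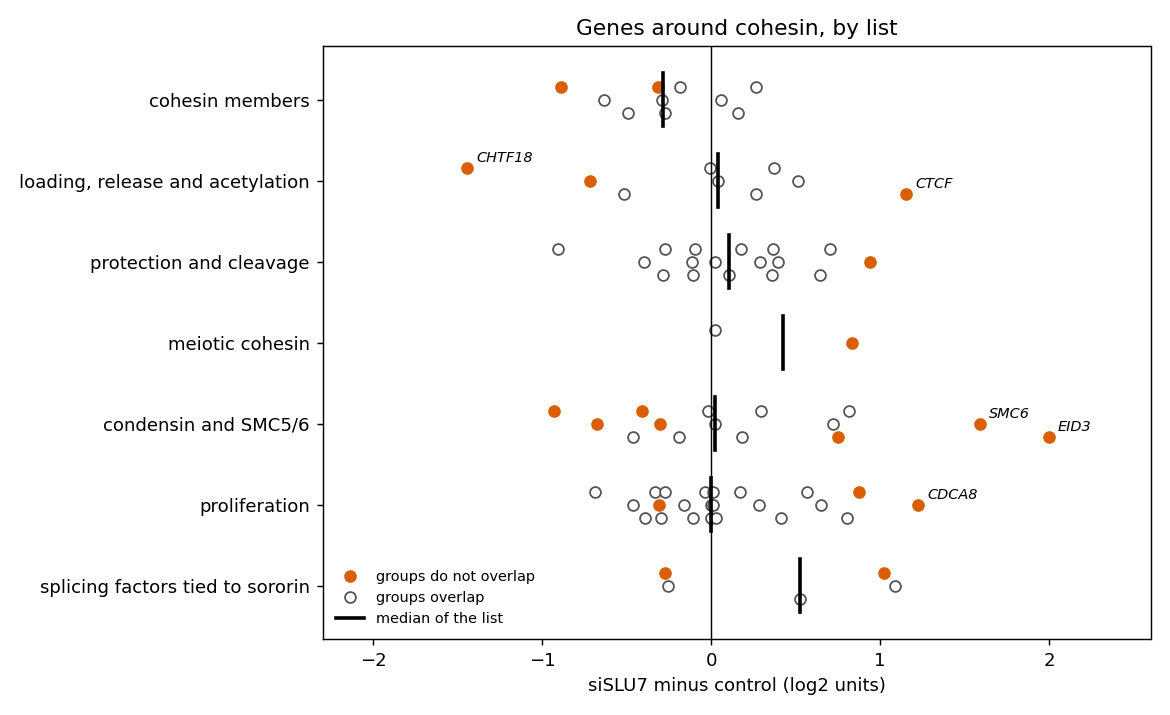
Difference siSLU7 minus control (log2 units) of each measured gene, by list; filled points are genes whose groups of 3 arrays do not overlap and bars are list medians. The cohesin members have a median of -0.28, and no gene shown passed the adjusted limma test.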

How the data were processed

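Biotin-labelled target from the total RNA of 6 samples was hybridised to 6 arrays of the type Affymetrix Human Exon 1.0 ST. The deposited values are log2 expression per transcript cluster. Per the labels, the chip definition was the core one from aroma.affymetrix, and the submitters' processing notes name RMA, which corrects background, normalizes and summarises probes. The build of the array's annotation was not given in the sources used here. No probe intensities or detection calls were used, and the number of arrays limits the precision. The labels do not say whether replicates were separate cultures, so p-values measure the spread between these samples, which may be technical.

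Clusters were named from GEO's platform annotation where it gave 1 symbol (16287 of 18708), with older symbols updated through RefSeq (GRCh38.p14), and the brightest cluster stood for a gene. All clusters were fitted with limma (version 3.58.1, R 4.3.3; lmFit and eBayes, group as the only term, no filter), with Benjamini-Hochberg adjustment over all clusters at 0.05. The fit was also run on simulated independent arrays, with none standing apart and with changes larger than those of the members. That run does not cover differences as small as theirs. From each list, called genes and up to 3 genes with an unadjusted p under 0.05, groups without overlap and the largest differences were named, besides all members, SLU7 and the 5 profiles most like CDCA5. WAPL, PTTG1, SGO1, SGO2, REC8, MKI67, TOP2A, NCAPD3, NSMCE1, NSMCE2, NSMCE4A and the other sororin splicing factors were named after their values were seen. So were CENPE and CCNA2. Members and lists were chosen with earlier results of these data known. No 2 arrays were copies (correlations 0.926 to 0.974). Alternatives were a replicate block, a filter on dim clusters, centring on medians, quantile normalization, weights per array, robust shrinkage with a trend, the mean of a gene's clusters, leaving out arrays, and the arrays that stand apart as a block.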

Additional observations from a re-analysis of the deposited data

How the results depend on the processing

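No cohesin gene was called by limma under any of the 15 alternatives, and the lowest adjusted p among members was 0.074, for PDS5B with the arrays that stand apart as a block. That block was chosen from the values it is fitted to, so its p-values are likely too small. The number of clusters called, 81 with all arrays, was 0 with the replicate block, 0 without any 1 array, 0 without both arrays that stand apart, 324 without dim clusters, 441 with an intensity trend and robust shrinkage, 575 with array weights and 783 with the block for the 2 arrays. The cause was not tested. Deviations from group means correlated at -0.38, -0.31 and 0.14 for replicates 1, 2 and 3. The 2 arrays that stand apart carry different replicate numbers and weigh on these correlations. The correlations therefore cannot show whether the replicates were paired. With the replicate block 1845 clusters had an unadjusted p under 0.05. The members' median ran from -0.46 to -0.13 without any 1 array and was -0.41 without both arrays that stand apart. Leaving out 1 array turned the sign of CDCA5 (range -0.031 to 0.42, with -0.001 without control replicate 1), STAG1 (-0.055 to 0.15, with -0.0057 without siSLU7 replicate 3), NIPBL (-0.57 to 0.059) and ESPL1 (-0.62 to 0.048). The other 6 members kept their sign under all 15, but PDS5A came close to 0 (-0.0043 without siSLU7 replicate 3). Of SLU7 and the 11 list genes followed through these settings, 8 passed in some alternatives: SLU7, CHTF18 and CDCA8 in 4 each (lowest adjusted p = 0.027, 0.017 and 0.026), MFAP1 in 3 (0.043), SMC6 in 2 (0.026), and CTCF (0.037), HASPIN (0.043) and UBE2C (0.04997) in 1 each. Those settings were the filter on dim clusters, the trend with robust shrinkage, array weights and the block for the 2 arrays.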
